A study of Salmo salar with 26 samples.

Results

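Transcripts of peptide signalling were followed through the lenses of Atlantic salmon with and without cataract. A galanin-like transcript (Unigene12516) and a neuropeptide Y transcript (Unigene12468) encode peptide precursors, and a thyrotropin-releasing hormone (TRH) degrading ectoenzyme (CL2646.Contig2) is a peptidase. They are 3 of the 26681 unigenes in the table, where a unigene is a transcript contig assembled from reads without a genome, and all 3 passed the filter on low values that left 19532 unigenes for testing. The galanin-like transcript and the ectoenzyme were chosen from the triploid cataract contrast after its values were seen, so their triploid difference is a description here. The contrast on which neuropeptide Y was chosen is not recorded, so every difference between groups in that transcript is a description, given without a test.

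RNA was sequenced from 26 lenses of separate fish. The fish were diploid or triploid, that is, with an additional set of chromosomes, and had a lens without or with cataract, an opacity of the lens. Clear lenses came from 6 diploid (2N-) and 6 triploid fish (3N-), and cataract lenses from 6 diploid (2N+) and 8 triploid fish (3N+). The labels name no treatment beyond sorting by ploidy and give no age or cataract score. Body weight ran from 110 to 345 g in 2N-, from 460 to 840 g in 2N+, from 280 to 700 g in 3N- and from 270 to 885 g in 3N+, so cataract and body weight cannot be told apart between the diploid groups. The libraries held 9.76 to 11.95 M counted reads. Levels are RPKM as deposited, which are reads per kilobase of contig and M reads counted, M standing for mega. A lens labelled with cataract, 2N+ replicate 4, had the levels of clear lenses in the galanin-like transcript and the ectoenzyme. The fitted diploid cataract differences of these transcripts are therefore given with and without it.

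Neuropeptides are cut by convertases from larger precursors, released from cells, read by receptors on other cells and ended by peptidases on the cell surface. Galanin and neuropeptide Y are best known from neurons of the brain and gut, where neuropeptide Y stimulates feeding in fish and mammals, and in mammals both peptides also occur in nerves that reach the eye. The TRH-degrading ectoenzyme, also named pyroglutamyl-peptidase II, is a membrane-bound metallopeptidase whose known substrate is TRH, the hypothalamic tripeptide that releases thyrotropin in mammals. The lens itself has no nerves and no blood vessels in the adult, and consists of a single epithelial layer over fibre cells filled with crystallins.

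The galanin-like contig is short, with 224 bases, and its best protein hit is a galanin-like protein of zebrafish with an expectation value of 1.39e-26. It collected 292 reads over the 26 lenses, so that 1 read was worth 0.404 RPKM. The neuropeptide Y contig has 605 bases, matches the rainbow trout precursor with an expectation value of 1.54e-51 and collected 738 reads. The ectoenzyme contig has 2068 bases, matches the zebrafish protein with an expectation value of 1.34e-85 and collected 384 reads, with 1 read worth 0.0438 RPKM. In mean level per length the galanin-like transcript (4.54 RPKM) and neuropeptide Y (4.2 RPKM) stood in the middle of the table, exceeded by 39.9% and 43.4% of unigenes, whereas the ectoenzyme (0.646 RPKM) was exceeded by 95.3%. The galanin-like transcript passed the filter on low values through 7 cataract lenses and no clear lens, the ectoenzyme through 12 clear and 2 cataract lenses, and neuropeptide Y through 12 of each. A contig may also collect reads from near-identical copies of a gene, which are frequent in salmon, and the counts cannot separate them.

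The galanin-like transcript was near the limit of detection in clear lenses and readily counted in most lenses with cataract. In 2N- its level was 0.393 RPKM in the lowest lens, 1.04 at the median and 1.23 in the highest, from 1 to 3 reads per lens. In 2N+ it was 0.378 RPKM in the lowest, 4.59 at the median and 15.7 in the highest, from 1 to 39 reads. In all, 5 of the 6 diploid cataract lenses lay above every clear diploid lens. The remaining lens, replicate 4, lay below every clear diploid lens on the deposited values and within their range after scaling between libraries. The share of all unigenes that separate groups as fully was not counted, here or in the paragraphs below, so such counts of lenses are descriptions.

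In 3N- the galanin-like transcript had 0 reads in 4 of 6 lenses, 1 read in replicate 4 and 3 reads in replicate 1, which put the highest lens at 1.25 RPKM. A count of 0 allowed a level of up to 1.19 to 1.23 RPKM in those lenses (3 reads; counting error only). In 3N+ the level was 1.13 RPKM in the lowest lens, 4.1 at the median and 37.4 in the highest, from 3 to 90 reads. In this group 7 of 8 lenses lay above every clear triploid lens, and replicate 5 lay within the clear range.

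For the galanin-like transcript the 2N- lenses averaged 0.893 ± 0.399 RPKM and the 2N+ lenses 5.89 ± 5.31 (SD, n = 6 each), whereas the 3N- lenses averaged 0.276 ± 0.503 (n = 6) and the 3N+ lenses 9.47 ± 12 (n = 8). From lowest to highest mean the order was 3N-, 2N-, 2N+ and 3N+, in which the ranges of both clear groups overlapped and so did those of both cataract groups. The cataract medians had the other order, 4.59 in 2N+ and 4.1 in 3N+. Without 3N+ replicate 6 the 3N+ mean was 5.49, below that of 2N+. The means with and without cataract stood in a ratio of 6.59 in diploids and of 34.3 in triploids, the latter resting on 4 reads in all 3N- lenses together. The triploid ratio was 116 without 3N- replicate 1, against 1 remaining clear read (interval 20.5 to 4590, counting error only), and 19.9 without 3N+ replicate 6. Fitted on log2 of the scaled RPKM plus 0.5, the difference between 2N+ and 2N- was 1.53 ± 0.61 (SE; 95% interval 0.27 to 2.78). It did not pass after adjustment over all unigenes (limma, unadjusted p = 0.019, adjusted p = 0.268). The transcript was in the test only through cataract lenses, 3 of them 2N+, so that these p-values are not independent of the filter; with no filter the limma adjusted p was 0.302. Without 2N+ replicate 4, the lens at the clear level, the difference was 1.96 ± 0.58 and the limma adjusted p was 0.0812. That lens was singled out by its level, so this p-value is not independent of the choice. Over 36 alternatives the diploid difference ran from 1.16 to 1.96, with adjusted p from 0.0781 to 0.689. Some of these, such as leaving out a triploid lens, could not move it. The fitted triploid difference was 3.24 ± 0.57 (95% interval 2.06 to 4.41). That interval is not adjusted for the choice of the transcript from this contrast, so it is no test.

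**Figure D1:**
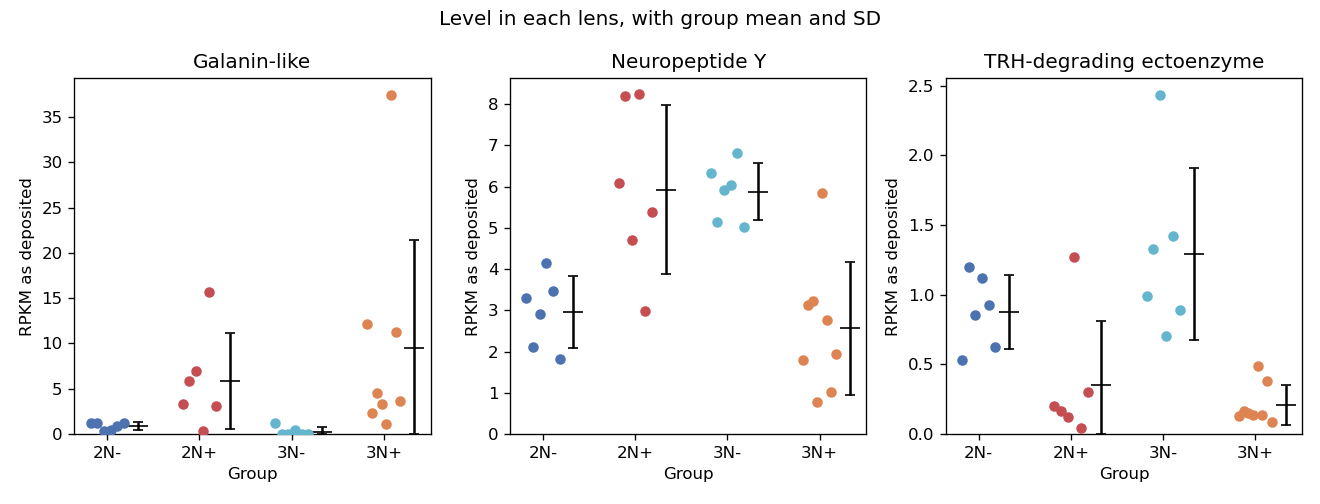
Each point is 1 lens, with RPKM as deposited on the vertical axis and the 4 groups on the horizontal axis; the dash and bars beside the points are the group mean and SD, with bars cut at 0. The galanin-like transcript reaches 15.7 RPKM in 2N+ and 37.4 in 3N+ but no more than 1.25 in clear lenses, neuropeptide Y is high in 2N+ and 3N-, and the ectoenzyme is low in all cataract lenses but 2N+ replicate 4.

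Neuropeptide Y followed neither cataract nor ploidy alone: its level was high in diploid cataract and triploid clear lenses, and lower in the other groups. In 2N- it was 1.82 RPKM in the lowest lens, 3.11 at the median and 4.15 in the highest, and in 2N+ it was 2.98, 5.74 and 8.25. In 3N- it was 5.01, 5.98 and 6.81, and in 3N+ it was 0.771, 2.35 and 5.84. Reads per lens ran from 12 to 26, from 20 to 59, from 33 to 45 and from 5 to 42 in these groups, so this transcript was counted in every lens.

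Of the diploid cataract lenses, 5 of 6 lay above all clear diploid lenses on the deposited values, but 3 of 6 on the scaled values. Of the triploid cataract lenses, 7 of 8 lay below all clear triploid lenses on both scales, with replicate 5 (5.84 RPKM) inside the clear range. All 6 clear triploid lenses lay above all clear diploid lenses as deposited, and 5 did after scaling. The 2N- lenses averaged 2.97 ± 0.873 RPKM and the 2N+ lenses 5.93 ± 2.05 (SD, n = 6 each), whereas the 3N- lenses averaged 5.88 ± 0.691 (n = 6) and the 3N+ lenses 2.56 ± 1.61 (n = 8). By the deposited means the order from lowest to highest was thus 3N+, 2N-, 3N- and 2N+. The upper places depend on the measure: 3N- stood above 2N+ in the medians and in the scaled means (6.23 and 5.36 RPKM). On the deposited values the range of 2N- lay inside that of 3N+, and the range of 3N- inside that of 2N+.

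Fitted log2 differences of neuropeptide Y were 0.61 ± 0.29 (SE; 95% interval 0.01 to 1.21) between 2N+ and 2N-, and -1.27 ± 0.27 (-1.83 to -0.71) between 3N+ and 3N-. Between ploidies they were 0.89 ± 0.29 (0.29 to 1.49) without cataract and -0.99 ± 0.27 (-1.55 to -0.43) with cataract. Each of these comparisons shares a group with another, so the signs are not independent of each other. The intervals are adjusted neither for the choice of the transcript nor over all unigenes, so an interval without 0 is no test. Over 36 alternatives the 4 differences kept their signs, from 0.45 to 0.86 in diploid cataract, from -1.43 to -0.96 in triploid cataract, from 0.76 to 1.02 between clear groups and from -1.17 to -0.82 between cataract groups. Some alternatives cannot move a given difference, such as leaving out a lens of a group outside it. The kept signs are therefore a weaker check than the count of 36 implies.

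**Figure D2:**
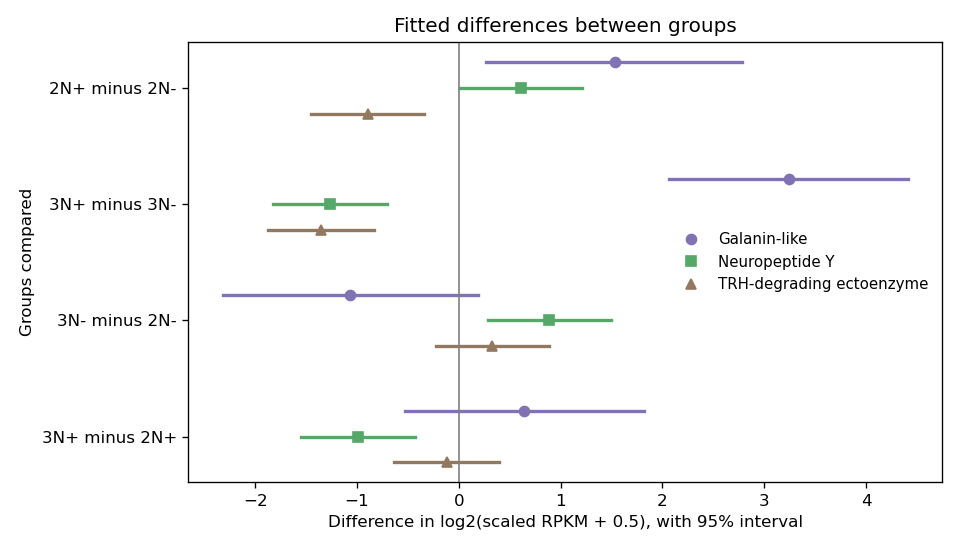
Fitted differences in log2(scaled RPKM + 0.5) on the horizontal axis, with 95% intervals as bars, for the 3 transcripts (marker shapes) in 4 comparisons (rows). Neuropeptide Y lies at 0.61 in diploid and at -1.27 in triploid cataract, while the galanin-like transcript lies above 0 and the ectoenzyme below 0 in both. Triploid values and all those of neuropeptide Y are descriptions, and so are their intervals. The added 0.5 RPKM shrinks differences of low transcripts such as the ectoenzyme, so sizes cannot be compared between transcripts.

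The TRH-degrading ectoenzyme was low in cataract lenses of either ploidy. In 2N- its level was 0.528 RPKM in the lowest lens, 0.888 at the median and 1.2 in the highest, from 12 to 27 reads. In 2N+ it was 0.0436, 0.185 and 1.27 RPKM, from 1 to 31 reads. Of the diploid cataract lenses, 5 of 6 lay below every clear diploid lens, and replicate 4, with 1.27 RPKM, lay above them all as deposited and inside their range after scaling. In 3N- the level was 0.706, 1.16 and 2.43 RPKM, and in 3N+ it was 0.0873, 0.142 and 0.488, from 2 to 12 reads. All 8 triploid cataract lenses lay below all 6 clear triploid lenses on both scales. The transcript was chosen from this contrast, and the share of all unigenes that separate as fully was not counted.

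For the ectoenzyme the 2N- lenses averaged 0.874 ± 0.266 RPKM and the 2N+ lenses 0.351 ± 0.457 (SD, n = 6 each), whereas the 3N- lenses averaged 1.29 ± 0.618 (n = 6) and the 3N+ lenses 0.209 ± 0.144 (n = 8). The order from lowest to highest mean was 3N+, 2N+, 2N- and 3N-, in which the ranges of the cataract groups overlapped and so did those of the clear groups. Without 2N+ replicate 4 the 2N+ mean was 0.168, below that of 3N+. The cataract mean was 0.401 times the clear mean in diploids, or 0.192 times without 2N+ replicate 4, and 0.161 times in triploids. The fitted diploid difference was -0.89 ± 0.27 (SE; 95% interval -1.45 to -0.34) and did not pass after adjustment over all unigenes (limma, unadjusted p = 0.00268, adjusted p = 0.106; 0.149 with no filter, through which the transcript came mainly by its clear lenses). Without 2N+ replicate 4 it was -1.16 ± 0.23 (limma adjusted p = 0.00702). That lens was singled out by its level in this transcript, so this p-value is no evidence of a difference. With all lenses included the difference passed on values as deposited (-0.79, limma adjusted p = 0.0386), where 1315 unigenes were called. It passed with connexin 43 as a covariate (-0.92, limma adjusted p = 0.0158), where 889 were called. With voom weights (-2.29, limma adjusted p = 0.0256) 257 were called, whereas the main fit called 215. Over 36 alternatives the diploid difference ran from -2.29 to -0.59. Adjusted p ran from 0.00702, without replicate 4, to 0.272. Some alternatives, such as leaving out a triploid lens, could not move the difference. The fitted triploid difference was -1.35 ± 0.25 (95% interval -1.87 to -0.83). That interval is not adjusted for the choice of the transcript from this contrast, so it is no test. All 3N+ lenses lay below the 0.5 RPKM added before the log, so this fit understates the fall given by the ratio of 0.161.

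Over all 19532 unigenes tested, limma called 215 (1.1%) between 2N+ and 2N- at an adjusted p below 0.05, of which 47 rose and 168 fell. Neither the galanin-like transcript nor the ectoenzyme was among them. Between 3N+ and 3N- it called 16 (0.0819%), of which 9 rose and 7 fell, and both transcripts were among these 16, which is how they were chosen. Without cataract, 12 unigenes (0.0614%) were called between the ploidies, and 1 with voom weights on recovered reads. With cataract 0 (0%) were called, although 1491 had an unadjusted p below 0.05, and limma with voom weights called 1. As a description, none of the 3 transcripts was called between ploidies.

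The transcripts also varied between lenses of the same group, and the same lenses stood apart in several of them. The 2N+ replicate 4 lens had the lowest galanin-like level (0.378 RPKM), the highest ectoenzyme level (1.27) and the highest neuropeptide Y level (8.25) of its group. The 2N+ replicate 5 lens was the reverse, with the highest galanin-like level (15.7 RPKM), the lowest ectoenzyme level (0.0436) and the lowest neuropeptide Y level (2.98). Among 3N+ lenses, replicate 5 had the lowest galanin-like level (1.13 RPKM) and the highest levels of the ectoenzyme (0.488) and neuropeptide Y (5.84), although after scaling the ectoenzyme was slightly higher in replicate 7 (0.441 against 0.429). The 3N+ lens highest in the galanin-like transcript, replicate 6, did not follow this pattern: its neuropeptide Y level (2.77 RPKM) lay above the group median of 2.35.

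Over the 26 lenses, without regard to group, Spearman's rho was -0.84 between the galanin-like transcript and the ectoenzyme, -0.61 between the galanin-like transcript and neuropeptide Y, and 0.5 between neuropeptide Y and the ectoenzyme. These values include the group differences for which members were chosen and are descriptions. Residuals from the group means were therefore compared by two-sided permutation tests within groups (100000 permutations), and p-values were adjusted over 12 relations. Levels entered as log2(scaled RPKM + 0.5), so that both levels of a lens carry the same scaling factor. Residuals of the ectoenzyme and neuropeptide Y gave r = 0.49 (permutation p = 0.00773, adjusted p = 0.0464) and rho = 0.43 (permutation p = 0.0297, adjusted p = 0.089), so that only r passed. Leaving out the 2 lenses farthest from the median of the ectoenzyme gave r = 0.38. Taken alone, the groups gave r = 0.49 in 2N-, 0.77 in 2N+ and 0.68 in 3N-, but 0.14 in 3N+. A shared scaling factor, from 0.7061 to 1.1255 in 2N- and from 0.7988 to 1.1684 in 3N-, can by itself raise r. The relation was not computed on the values as deposited, so the r that passed is known for scaled values only.

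Residuals of the galanin-like transcript and the ectoenzyme gave r = -0.46 (permutation p = 0.0176, adjusted p = 0.0703) and rho = -0.44 (permutation p = 0.0198, adjusted p = 0.0834). Neither passed, and without the 2 farthest lenses r was -0.29. Within groups r was 0.07 in 2N-, -0.92 in 2N+, -0.57 in 3N- and -0.21 in 3N+, which puts the strongest relation among the diploid cataract lenses. Residuals of the galanin-like transcript and neuropeptide Y gave r = -0.51 (permutation p = 0.0321, adjusted p = 0.0962) and rho = -0.4 (permutation p = 0.0735, adjusted p = 0.176), which did not pass either.

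**Figure D3:**
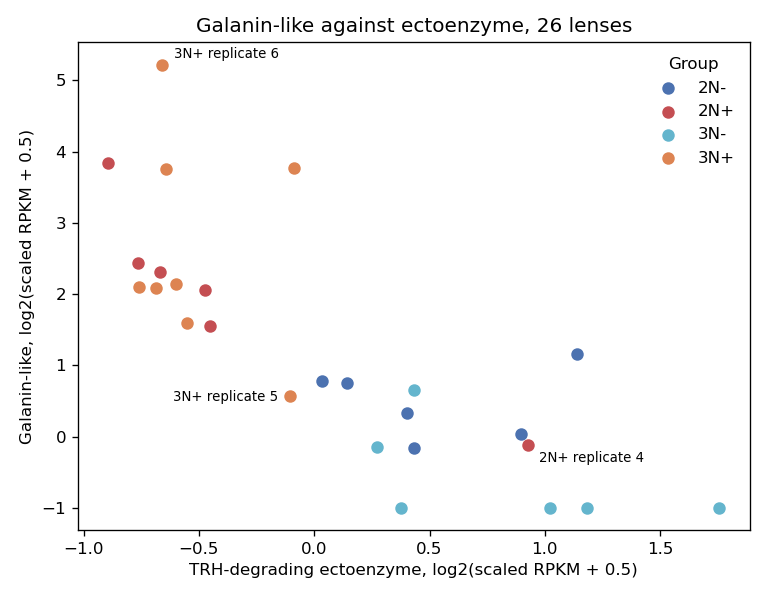
Each point is 1 of 26 lenses, coloured by group, with the ectoenzyme on the horizontal and the galanin-like transcript on the vertical axis, both as log2(scaled RPKM + 0.5). Cataract lenses gather at high galanin-like and low ectoenzyme values, with Spearman's rho of -0.84 over all lenses, and 2N+ replicate 4 lies among the clear lenses.

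Unigenes listed by name as markers of other cell types varied between lenses. A list of 15 surface-epithelium unigenes (keratins, periplakin, plakophilin and desmoplakin, proteins of epithelial filaments and junctions) summed to 144 to 214 RPKM in 2N-, 139 to 480 in 2N+, 135 to 204 in 3N- and 165 to 944 in 3N+. Of its 13 tested members, 0 were called in diploid and 0 in triploid cataract, beside 1.1% and 0.0819% of all unigenes. At such shares, 0 calls among 13 say little about the list. The median log2 difference of these members was 0.04 and 0.23, beside 0.03 and 0 over all unigenes tested. In diploid cataract 7 of the 13 differences were positive, and in triploid cataract 11. The list held steady signal in clear lenses too, led by a KRT222-like unigene (Unigene8578) with 73.1 ± 4.37 RPKM in 2N- and 65.8 ± 4.02 in 3N- (SD, n = 6 each). A periplakin unigene (Unigene8632) had 17.2 ± 2.87 and 12.8 ± 2.31 RPKM there. The name of the list is thus only a label, and the tissue from which its transcripts came was not tested. In bulk lens RNA a change in the number of cells of a type and a change in RNA per cell cannot be told apart.

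The galanin-like transcript moved with the sum of these surface-epithelium markers inside the groups. The spread of the sum lay mainly in its keratin 8 and 18 unigenes, such as Unigene7304 with 45.8 ± 60.6 RPKM and CL2963.Contig1 with 47.7 ± 62.6 RPKM (SD, n = 8) in 3N+, whereas the KRT222-like unigene (Unigene8578) had 73.7 ± 8 there. In the other groups Unigene7304 had 2.29 ± 1.27 RPKM in 2N-, 20.2 ± 28.7 in 2N+ and 2.71 ± 1.5 in 3N- (SD, n = 6 each). Residuals of the summed list and of the galanin-like transcript gave r = 0.84 (permutation p = 1e-05, the smallest that 100000 permutations can give; adjusted p = 0.00012) and rho = 0.77 (permutation p = 0.00057, adjusted p = 0.00684). Leaving out the 2 farthest lenses gave r = 0.77. Within groups r was 0.74 in 2N-, 0.77 in 2N+, 0.29 in 3N-, where 4 lenses had no galanin-like read, and 0.95 in 3N+. The share of all unigenes that follow this sum within groups was not counted. The relation is therefore not shown to be particular to the galanin-like transcript. The lens with the highest galanin-like level, 3N+ replicate 6 (37.4 RPKM), also had the highest sum (944 RPKM), and 2N+ replicate 4, the lowest of its group in the galanin-like transcript, had the lowest sum of its group (139 RPKM).

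With the summed surface-epithelium markers as a covariate, an alternative chosen after seeing the data, the galanin-like difference was 1.22 ± 0.35 in diploids (limma adjusted p = 0.0865) and 1.9 ± 0.37 in triploids, compared with 1.53 and 3.24 without it. The sum was not centred within groups, so it could take up part of the cataract difference itself. The same covariate left the ectoenzyme at -0.85 in diploids and -1.18 in triploids, and neuropeptide Y at 0.68 and -0.96. It left 0 unigenes called by limma in triploid cataract, where 890 had an unadjusted p below 0.05. Without this covariate 16 were called and 1689 had such a p. Residuals of neuropeptide Y against the same sum gave r = -0.42 (permutation p = 0.107, adjusted p = 0.256) and rho = -0.53 (permutation p = 0.0208, adjusted p = 0.0834). Those of the ectoenzyme gave r = -0.25 (permutation p = 0.136, adjusted p = 0.273) and rho = -0.27 (permutation p = 0.15, adjusted p = 0.3).

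**Figure D4:**
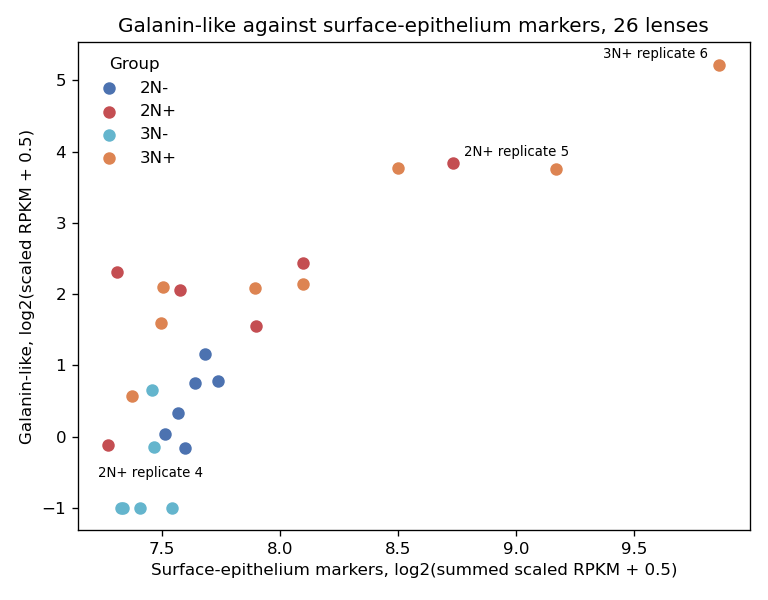
Each point is 1 of 26 lenses, coloured by group, with the summed surface-epithelium markers on the horizontal axis as log2(summed scaled RPKM + 0.5) and the galanin-like transcript on the vertical axis as log2(scaled RPKM + 0.5). The 3N+ replicate 6 lens is highest in both, and 4 lenses of 3N- without a galanin-like read sit at the bottom left.

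Retinal transcripts, a sign of adhering retina, and haemoglobins, a sign of blood, varied between lenses as well. The 23 retinal unigenes summed to 2.34 RPKM in the lowest lens, of 3N-, and 3560 in the highest, of 2N+, and the 4 haemoglobins summed to 4.78 to 2030 RPKM. Among retinal markers 8 were tested, and of the haemoglobins 4. In diploid and triploid cataract 0 of either list passed, beside 1.1% and 0.0819% of all unigenes. Median log2 differences were 1.27 and -0.13 for the retina and 2.08 and 1.78 for haemoglobins in diploid and triploid cataract. Residuals of the galanin-like transcript gave r = 0.12 with the retinal sum (permutation p = 0.566, adjusted p = 0.755), with 0.63 in 2N-, -0.1 in 2N+, 0.81 in 3N- and -0.14 in 3N+ taken alone, and r = 0.08 with the haemoglobins (permutation p = 0.703, adjusted p = 0.767). None of the 4 corresponding relations of neuropeptide Y and the ectoenzyme passed, with r from -0.11 to 0.25.

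Markers of neurons and neuroendocrine cells were read because both peptides are best known there. The list held 7 unigenes in the table, all tested, of which 0 were called in diploid or triploid cataract, beside 1.1% and 0.0819% of all unigenes. Their median log2 differences were 0.05 and 0.41, beside 0.03 and 0 over all unigenes tested. At such shares, 0 calls among 7 say little about the list. Its median sum lay between 473 RPKM in 3N- and 571 RPKM in 2N+ and was made up mainly of tubulin beta-3 (CL371.Contig2), with stathmin-2 (Unigene6943) and gamma-enolases behind it. A SNAP-25-like unigene (Unigene11508), a protein of the vesicle release machinery, reached 5.87 RPKM, and among the unigenes analysed here no protein hit named synapsin, syntaxin-1, synaptotagmin-1, neurofilament, neuromodulin or ELAV-like 3 or 4. The part of nerve cells in the peptide levels was not tested.

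Lens transcripts themselves were abundant in every group. Of 76 unigenes of lens fibre proteins 72 were tested. In diploid cataract, where 1.1% of all unigenes were called, 0 rose and 2 fell, a gamma-crystallin N-like (CL85.Contig1) and a gamma-crystallin B (Unigene6143). The first of these averaged 7720 ± 751 RPKM in 2N- and 4870 ± 845 in 2N+ (SD, n = 6 each). In triploid cataract, where 0.0819% of all unigenes were called, 0 passed. Median log2 differences were -0.47 and -0.07, beside 0.03 and 0 over all unigenes tested. These medians are on scaled values, and scaling lowered 2N+ relative to 2N-. As deposited, the summed list had a median of 549000 RPKM in 2N- and 496000 in 2N+. Its most abundant unigene, a beta-crystallin B2-like (CL1905.Contig1), averaged 58000 and 53400 RPKM there, with a fitted difference of -0.41. The diploid median is therefore not a measure of a fall in the deposited levels. No unigene passed in either contrast among the 5 of lens epithelium, the 9 tested of muscle and vessel and the 1 of pigment cells (medians -0.05, 0.19 and 1.24 in diploids; 0.03, 0.38 and -0.19 in triploids). The single leukocyte unigene did not reach the filter, with at most 0.203 RPKM in a lens.

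Slopes within groups were fitted on body weight and on connexin 43 (CL2590.Contig1), a gap junction protein that marks lens epithelium and ranged from 0.42 to 109 RPKM between lenses. On body weight 0 of 19532 unigenes (0%) passed by limma, with 1187 at an unadjusted p below 0.05 and 1 called with voom weights. The slopes, in log2 units of the transcript per doubling of weight, were -0.56 ± 0.41 for the galanin-like transcript (adjusted p = 0.935), 0.2 ± 0.2 for neuropeptide Y (0.962) and 0.24 ± 0.18 for the ectoenzyme (0.935). On connexin 43, 7678 unigenes (39.3%) passed, 3825 with a positive and 3853 with a negative slope. The ectoenzyme was 1 of them, with a slope of -0.12 ± 0.04 (limma adjusted p = 0.00955), lower in lenses with more connexin 43, but on the values as deposited the slope was -0.07 and did not pass (adjusted p = 0.0653). A share of 39.3% over all unigenes makes such a call common. The galanin-like transcript (0.07 ± 0.09, limma adjusted p = 0.562) and neuropeptide Y (-0.04 ± 0.05, limma adjusted p = 0.519) did not pass.

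Unigenes with the most similar pattern were ranked by Spearman's rho over the 26 lenses among tested unigenes with a protein hit. Closest to the galanin-like transcript were Unigene2714, whose hit is an unnamed schistosome protein (rho = 0.93), ictacalcin (Unigene4061, 0.88), a calcium-binding S100 protein first described in catfish, a galectin-3-like lectin (CL99.Contig1, 0.87), cytoplasmic cysteinyl-tRNA synthetase (CL3670.Contig1, 0.86) and a second ictacalcin unigene (Unigene9373, 0.83). Ictacalcin (Unigene4061) averaged 7.37 ± 6.72 RPKM in 2N- and 270 ± 386 in 2N+ (SD, n = 6 each), 7.5 ± 7.47 in 3N- (n = 6) and 402 ± 509 in 3N+ (n = 8). Its lowest 2N+ value, 5.95 RPKM in replicate 4, lay inside the clear range. Among opposed patterns the ectoenzyme itself ranked first for the galanin-like transcript, at -0.84, and the next unigene had the same rounded value. Both transcripts were chosen from triploid cataract, where the galanin-like transcript rose and the ectoenzyme fell. This rank is therefore not independent of the choice and is a description.

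Closest to neuropeptide Y were a hypothetical protein (Unigene7744, rho = 0.77), the elastic fibre protein fibulin 4 (Unigene12337, 0.75), the mitochondrial channel VDAC1 (CL2908.Contig1, 0.71), an FKBP15-like protein (Unigene14660, 0.71) and the chaperonin subunit TCP1 epsilon (CL3804.Contig2, 0.69). These values were lower than those of the other 2 transcripts. Fibulin 4 had 5.65 ± 1.08, 6.95 ± 0.925, 6.41 ± 0.66 and 4.61 ± 1.13 RPKM (SD, n = 6, 6, 6 and 8) in 2N-, 2N+, 3N- and 3N+. The groups thus stood in the same order as the deposited means of neuropeptide Y, whose medians and scaled means reverse 2N+ and 3N-. Closest to the ectoenzyme were adenosine deaminase (Unigene4383, 0.92), which removes the amino group of adenosine, a matrix metalloproteinase-14-like protease (CL384.Contig1, 0.91), and 3 unigenes with uncharacterized hits at 0.9 (Unigene9693, CL3983.Contig1 and CL2974.Contig2). Adenosine deaminase averaged 60.5 ± 8.14 RPKM in 2N- and 21.9 ± 19.2 in 2N+ (SD, n = 6 each), 51.3 ± 4.74 in 3N- (n = 6) and 24 ± 8.24 in 3N+ (n = 8).

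The wider peptide machinery of the lens was read from lists matched by words in the protein hits. Among precursors, 5 of 7 unigenes were tested. In diploid cataract 0 rose or fell, beside 1.1% of all unigenes called. In triploid cataract 1, the galanin-like transcript, rose, beside 0.0819% of all unigenes called. That call is how it was chosen and is no evidence on the list. Their median log2 differences were 0.23 and -0.06, beside 0.03 and 0 over all unigenes tested. The most abundant precursor was somatostatin-2 (Unigene8256), whose products inhibit hormone release, with averages of 72.6 ± 45 RPKM in 2N- and 92.9 ± 64.8 in 2N+ (SD, n = 6 each), 54.6 ± 40 in 3N- (n = 6) and 56.8 ± 48 in 3N+ (n = 8). It varied from 9.6 to 168 RPKM between lenses, on a contig of 5093 bases, which is long for such a precursor. A second somatostatin-2 unigene (Unigene8255) and nucleobindin-1 (CL2817.Contig2), a calcium-binding Golgi protein, came next, and none of these passed the test in either ploidy.

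A single receptor of the listed peptides was found, a melanin-concentrating hormone receptor 1 (Unigene2608), with log2 differences of 0.33 (limma adjusted p = 0.491) and -0.04 (limma adjusted p = 0.984); among the unigenes analysed here no hit named a receptor of galanin, neuropeptide Y or TRH. All 8 processing unigenes were tested and 0 were called in diploid or triploid cataract, beside 1.1% and 0.0819% of all unigenes. Their median log2 differences were -0.32 and 0.08, beside 0.03 and 0 over all unigenes tested. Neuroendocrine convertase 2 (Unigene6240), the protease that cuts many neuropeptide precursors in secretory granules, had 85.4 ± 11.1, 96.1 ± 29.8, 81.1 ± 9.12 and 94.9 ± 18.8 RPKM (SD; n = 6, 6, 6 and 8) in 2N-, 2N+, 3N- and 3N+. A second unigene of this convertase (Unigene9536) had 4.57 ± 1.59, 11.3 ± 3.55, 11.4 ± 4.77 and 14.3 ± 7.21 RPKM there. Its log2 differences were 0.96 in diploid (limma adjusted p = 0.239) and 0.26 in triploid cataract (limma adjusted p = 0.922). Both PCSK5-like convertase unigenes had the lowest diploid values of the list, -1 (Unigene9382, limma adjusted p = 0.0786) and -0.88 (Unigene9992, limma adjusted p = 0.0939).

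Of 13 peptide-degrading unigenes 12 were tested. In diploid cataract 0 of these were called, beside 1.1% of all unigenes. In triploid cataract 1, the TRH-degrading ectoenzyme, fell, again the call that chose it, beside 0.0819% of all unigenes. Their median log2 differences were -0.13 and -0.19. The ectoenzyme was among the least abundant of them, at 0.646 RPKM on average. The cytosolic thimet oligopeptidase (CL2169.Contig1), which cuts short peptides, was the most abundant, with means of 840 ± 61.6, 817 ± 51.5, 930 ± 59.6 and 941 ± 100 RPKM (SD; n = 6, 6, 6 and 8) in 2N-, 2N+, 3N- and 3N+. Angiotensin-converting enzyme (CL1513.Contig1), a membrane-bound peptidase, ran from 0.106 to 20.2 RPKM between lenses. The second enzyme of pyroglutamyl peptides, the cytosolic pyroglutamyl-peptidase 1 (Unigene21576), did not reach the filter on low values.

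**Figure D5:**
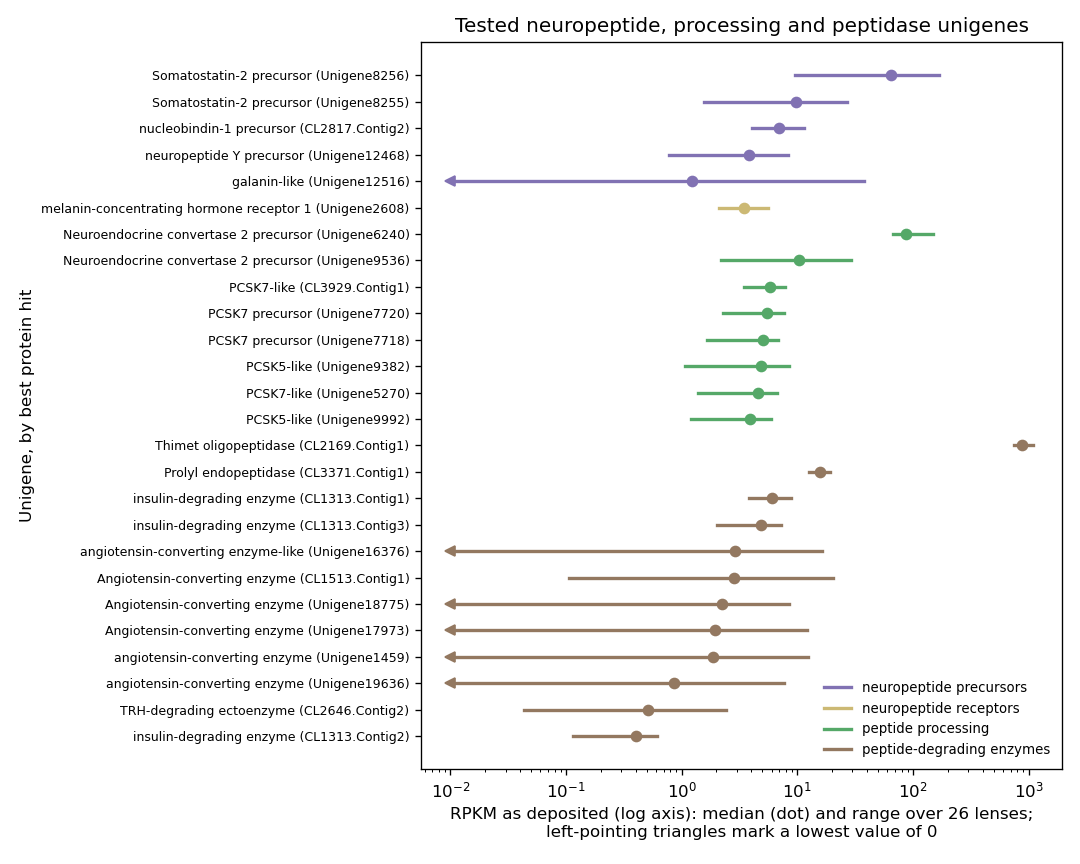
Median (dot) and range over 26 lenses (line) of RPKM as deposited, on a log axis, for each tested unigene of the precursor, receptor, processing and peptide-degrading lists; triangles mark a lowest value of 0. Somatostatin-2, neuroendocrine convertase 2 and thimet oligopeptidase lie above the galanin-like transcript, neuropeptide Y and the ectoenzyme.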

How the data were processed

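Poly(A) RNA of 26 lenses was sequenced with 50-base single reads, per the labels. The authors deposited RPKM values for 26681 unigenes with a best protein hit for 13784, the source of every gene name; assembler and aligner: not given in the sources used here. A dash was read as 0. Whole reads were recovered from the RPKM values for 100% of unigenes (tolerance 0.01 reads), giving 9.76 to 11.95 M reads per library and 14 reads at the median unigene and library, which limits precision for low transcripts. RPKM were scaled by the trimmed mean of M values (trims 0.3 and 0.05), whose factors averaged 1.16 in 2N+ and 0.949 to 0.988 elsewhere.

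Unigenes with at least 10 reads at the median library size in 6 libraries and 15 reads in all were tested (19532). Since the unit was RPKM, limma 3.58.1 (R 4.3.3; trend and robust) on log2(scaled RPKM + 0.5) with 4 group means was used in place of a count model, with two-sided p-values and Benjamini-Hochberg adjustment over all unigenes at 0.05. Such fold changes understate low genes, and ratios of group means use the deposited values. Correlations and permutation tests used Python 3.11.15, numpy 2.4.6 and scipy 1.17.1. Recovery and the test were checked on simulated data. The reads simulated for the test were drawn independently for each unigene and library. Variation shared between unigenes of a lens was left out, so that check gives no error rate for these lenses. Members and the 13 gene lists were chosen with earlier results of these data known, and list wording was refined after matches were seen. Named genes are the members, the 5 most similar unigenes of each, connexin 43, and list members that passed or are most abundant; others named (Unigene8578, Unigene11508, Unigene21576, Unigene7304, CL2963.Contig1, the PCSK5-like pair, angiotensin-converting enzyme) were chosen after their values were seen. Alternatives covered scaling, pseudocount, filter, covariates, replicate block, groups fitted alone and each library left out. Voom and the surface-epithelium covariate were added after seeing the data. Body weight entered centred within groups, so it does not adjust differences between groups for weight. As covariates of group differences, connexin 43 and the surface-epithelium sum were not centred within groups, so each could take up part of those differences. Leaving out a lens of a group outside a comparison, or lifting the filter, does not move its fitted difference. Intervals and floors cover counting error only.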

Additional observations from a re-analysis of the deposited data

Results flagged for a closer look

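Single lenses stood far from the rest of their group by Dixon's criterion on deposited RPKM, among 12 groups examined. The criterion flags about 1 in 20 groups by chance only where values follow a normal distribution. Levels of a few reads do not, so the chance rate for these groups is not known. The galanin-like transcript had 1.25 RPKM (3 reads) in 3N- replicate 1, where the others had 0 or 1 read, and 37.4 RPKM in 3N+ replicate 6, where the next lens had 12.1. The surface-epithelium sum was also highest in that 3N+ lens, at 944 RPKM. The ectoenzyme had 1.27 RPKM in 2N+ replicate 4, where the next lens had 0.299.

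Neuropeptide Y differed in direction between ploidies, by 0.61 on the log2 scale in diploid and by -1.27 in triploid cataract. On the deposited values each 2N+ lens lay above the 2N- mean, replicate 5 only just (2.98 against 2.97 RPKM), and each 3N+ lens below the 3N- mean; on the scaled values replicate 5 lay below the 2N- mean (2.63 against 3.18). The triploid minus the diploid cataract difference was -1.88 ± 0.4 (SE). Limma did not call it over all unigenes, but this is no test of it, because it was flagged on these same values. Since the contrast on which this transcript was chosen is not recorded, the value is a description.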

How the results depend on the processing

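Calls over all unigenes moved more than the members did. Diploid cataract calls went from 215 to 889 with connexin 43 as a covariate, 50 with the diploid groups fitted alone, 1315 on values as deposited, and 66 (without 2N- replicate 2) to 412 (without 2N+ replicate 4) on leaving out 1 library each. Triploid calls went from 16 to 110 with connexin 43, 9 with the triploid groups alone, 48 as deposited, 9 with voom on recovered reads, 0 with the surface-epithelium covariate (890 at an unadjusted p below 0.05), and 5 (without 3N- replicate 3) to 40 (without 3N+ replicate 5) on leaving out 1 library each. Voom called 257 in diploids. The galanin-like diploid difference passed under none of 36 alternatives. That of the ectoenzyme passed with connexin 43 as a covariate (-0.92, limma adjusted p = 0.0158), as deposited (-0.79) and with voom (-2.29, limma adjusted p = 0.0256). It also passed without 2N+ replicate 4, but that lens was singled out by its level in this transcript, so the pass is no evidence. On leaving out 1 library each it ran from -1.16 to -0.77. The ectoenzyme slope on connexin 43 was -0.07 as deposited, and that of neuropeptide Y turned to 0.04 (from -0.04). A pseudocount of 0.1 moved triploid differences to 4.85 for the galanin-like transcript and -2.23 for the ectoenzyme, and the galanin-like difference between clear groups from -1.07 to -2.29; voom gave -2.54 for the ectoenzyme in triploids. The cause of these moves was not tested.

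Same-numbered libraries were treated as unpaired. Of 36 same-number pairs, 18 had residual correlations above 0.1, and only 3 of 26 libraries had their own number as the nearest. Pairs of different number were not counted at that cut, so the count of 18 does not settle pairing. With the replicate number as a block, calls were 183 in diploid and 5 in triploid cataract, the galanin-like diploid difference stayed at 1.53 (limma adjusted p = 0.318), that of the ectoenzyme at -0.89 (limma adjusted p = 0.153), and its connexin 43 slope was -0.13 (limma adjusted p = 0.0245); connexin 43 slopes of the galanin-like transcript and neuropeptide Y were 0.04 and -0.03, and the 3 slopes on body weight were -0.37, 0.33 and 0.15. Levels of 1 to 3 reads in clear lenses limit the galanin-like ratios.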
